A study of Mus musculus with 6 samples.

Results

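Cytosolic ribosomal protein genes encode the protein part of the ribosomes that translate messages in the cytoplasm. Members were taken from the annotation of the Mouse Genome 430 2.0 array as symbols of the forms Rpl and Rps with a number, together with Rplp0, Rplp1, Rplp2 and Rpsa, without pseudogenes and S6 kinase genes. Probe sets with 1 symbol gave 49 such genes of 18193 on the array, and each gene was represented by its brightest one (highest mean of log2 values). A further 31 ribosomal protein symbols occurred only on probe sets that list several symbols, and those genes are not members. Rps19bp1, whose symbol has the same form, encodes a protein that binds a ribosomal protein and was left out.

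The arrays compared 2 populations of E0771, a mammary tumour cell line of C57BL/6 mice. Unselected parental cells were set against E0771-HML2 cells, which had spread to the lung from the mammary fat pad of C57BL/6 hosts and had been through a repeat of that selection. The labels name no transgene or drug for either group. Each group was represented by 3 cultures on 1 array each, grown for 3 days in serum-containing medium, so the values describe cultured cells and not tumours. The labels call the cultures biological replicates and do not say how the HML2 cultures relate to hosts or to rounds of selection. The p-values therefore speak of the spread among the cultures used.

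Ribosomal proteins are divided between a small subunit, which reads the message, and a large subunit, which joins amino acids. Subunits are assembled in the nucleolus by a large set of factors that process ribosomal RNA, and the messages of ribosomal proteins carry a tract of pyrimidines at the 5′ end through which growth signals control their translation together. Ribosomal protein messages are among the most abundant of a growing cell, and their genes have left many processed pseudogenes in the mouse genome.

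Many of the members have such a tract at the annotated start site. The 30 bases from 10 before to 20 after the annotated start are printed below for the 4 members that passed the test, for Rpl35, which has the longest tract of those shown and was level (log2 difference -0.02), and for the paralog Rpl22l1. They are RefSeq sequences of GRCm38.p6, 5′ to 3′ on the strand of the gene, with the longest run of C or T in capitals.
Rpl14: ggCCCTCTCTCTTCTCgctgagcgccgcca
Rps6: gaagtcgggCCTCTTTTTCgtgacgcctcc
Rpl12: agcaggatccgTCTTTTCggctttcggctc
Rpl37a: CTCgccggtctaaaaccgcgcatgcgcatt
Rpl35: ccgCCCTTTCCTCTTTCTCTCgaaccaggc
Rpl22l1: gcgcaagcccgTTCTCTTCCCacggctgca
These windows lie at chr9:120571507-120571536 (plus strand), chr4:86857348-86857377 (minus), chr2:32961702-32961731 (plus), chr1:72711250-72711279 (plus), chr2:39005112-39005141 (minus) and chr3:28805498-28805527 (plus), in the order printed. The run was 18 bases long in Rpl35, 14 in Rpl14, 10 in Rps6 and Rpl22l1, 7 in Rpl12 and 3 in Rpl37a. A run of at least 7 was present at 25 of 51 start sites of members (49%), against 17.9% of 32851 start sites in the table. The table held 43 of the 49 members, and some genes have several start sites. In the 300-base windows from 250 before to 50 after the start, CCGGAAG, the core bound by ETS factors, occurred on either strand at 41.2% of member start sites and 8.86% of all. AAGATGG, the core of the YY1 motif, occurred at 15.7% and 6.34%, and TATAAA at 11.8% and 13.6%. Annotated starts can lie some bases away from the true start, and a match is a description of letters. The members that passed the test and those that did not both included genes with long tracts.

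Signals are linear intensities, deposited with each of the 6 arrays at a trimmed mean of 500, so a difference in the total amount of messenger RNA would not show. A gene was tested when its mean signal reached 100, on the log2(signal + 50) scale, and 9361 genes were tested. Of all genes, 12.3% were called higher in HML2 cells and 14.9% were called lower (adjusted p below 0.05 by limma, with Benjamini-Hochberg adjustment over the genes tested). Bacterial control probe sets, a gauge of background, read at most 36.2. Of 10 epithelial and mammary markers, 4 reached a mean signal of 100, and the summed signal of the list was 1726 to 1917 on parental and 4138 to 5368 on HML2 arrays, mostly from the keratin gene Krt8 (1095 to 4175). Of the other 3 that reached it, Esr1 was lower (344 to 159), and Epcam and Elf3 were not called. The defining epithelial gene Cdh1 had a mean of 22.9 in parental and 19.4 in HML2 cells, within the range of the bacterial controls. Leukocyte markers summed to 872 to 1055 and 1578 to 1999, with Laptm5 higher (311 to 1191), Lyz2 lower (192 to 78.9) and the pan-leukocyte gene Ptprc at 5.24 and 8.71, and 0 of 8 endothelial, 1 of 8 lung epithelial and 0 of 4 erythroid markers reached 100. The part of these differences in the results was not tested. The ratio of 3′ to 5′ actin control probe sets was 1.46 ± 0.059 on the parental arrays and 1.38 ± 0.013 on the HML2 arrays (SD, n = 3; exact two-sided permutation p = 0.1, the smallest possible), and that of Gapdh was 0.801 ± 0.0022 and 0.792 ± 0.023 (p = 0.7).

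Most ribosomal protein genes had nearly the same signal in HML2 and parental cells. Of 45 members tested, 33 differed by less than 0.1 and 38 by less than 0.2 on the log2 scale. The median difference was -0.00, against -0.02 over all genes tested, and 18.4% of all genes lay within 0.1. In the test, 1 member was higher, Rpl12, and 3 were lower, Rpl14, Rps6 and Rpl37a, which is 2.22% and 6.67% of the members beside 12.3% and 14.9% of all genes. The calls of Rpl12, Rpl14 and Rps6 each came from 1 dim probe set, and brighter probe sets that list these symbols beside others were not called. The groups did not overlap for the same 4 genes, 1 above and 3 below, whereas all HML2 arrays lay above all parental arrays for 20.6% and below them for 23.8% of genes tested. The median of the members stayed between -0.08 (cyclic loess) and 0.06 (median centring) under other scalings, so its sign depended on the scaling.

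**Figure D1:**
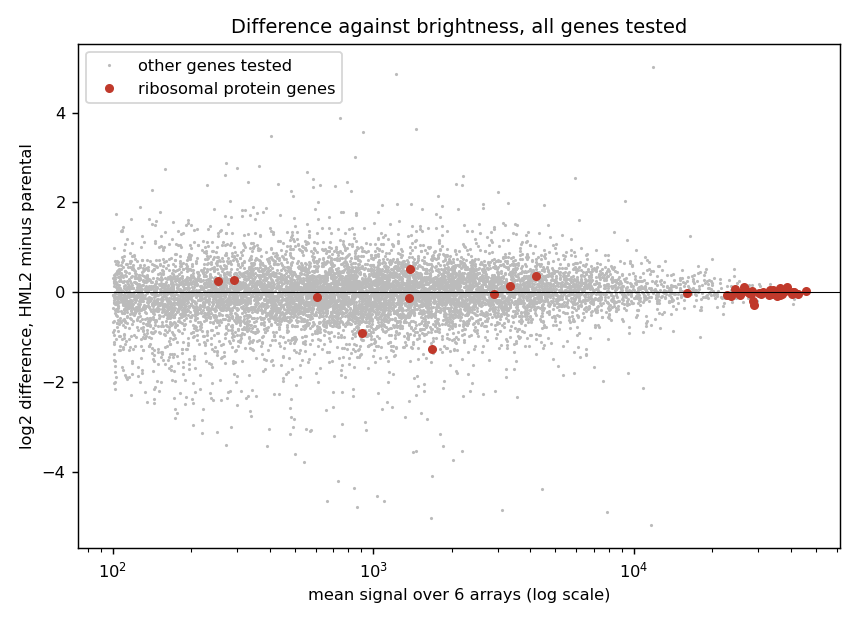
Log2 difference (HML2 minus parental, log2(signal + 50)) of each gene tested against its mean signal over 6 arrays on a log axis, with ribosomal protein genes in red and the other genes in grey. A total of 35 members crowd at the bright end close to 0, and the 10 dimmer members spread from -1.26 to 0.53.

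The bright members set this picture. A mean signal of at least 10000, a split chosen after the values were seen, was reached by 35 members, with means from 15927 to 45711 where the highest value on any array was 49959. Of these, 0 were higher and 1 was lower by limma (0 and 1 at an unadjusted p below 0.05), and their differences had an SD of 0.080 and a range of -0.29 to 0.12. All 35 had a 95% interval inside -0.5 to 0.5. Other bright genes were more widely spread. Of 314 non-members above 10000, 36 were higher and 22 lower, with an SD of 0.51. Among the very brightest the contrast was smaller. Of 26 non-members with a mean of at least 25000, a split chosen in the same way, 1 was higher and 0 lower (1 and 1 at an unadjusted p below 0.05), with an SD of 0.13, against 0 higher and 1 lower of 31 members with an SD of 0.081. The table gives no saturation flags, and whether probes at the top of the range can show a change in full was not tested.

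The 5 brightest members were Rps29, Rps18, Rps10, Rps28 and Rpl38, the first 4 of the small subunit and the last of the large. Rps29 read 44883, 47019 and 43516 on parental arrays 1 to 3 and 47422, 48066 and 43359.8 on HML2 arrays 1 to 3, the brightest probe set of the arrays by mean signal. Its groups overlapped, with a log2 difference of 0.04 and a 95% interval of -0.13 to 0.20. Rps18 read 45606, 45057 and 38558 in parental and 44086, 43638 and 37959.9 in HML2 cells, so that array 3 was the lowest of both groups. Its difference was -0.04 (-0.26 to 0.18). Rps10, Rps28 and Rpl38 had differences of 0.00, 0.01 and -0.04, none of which passed the test.

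Array 3 was low for bright members in both groups. Relative to the parental mean, the median of the bright members was 0.00, 0.10 and -0.11 on parental arrays 1 to 3 and 0.06, 0.06 and -0.13 on HML2 arrays 1 to 3. Across all genes, arrays of the same number deviated together, with correlations of 0.45, 0.34 and 0.24 across genes. Across the members alone the correlations were 0.061, 0.32 and 0.14. The labels do not say what the replicate numbers stand for. With the replicate number as a block, 2 members were higher and 4 lower, beside 17.8% and 19.6% of all genes under that fit. The additions were Rpl22l1 (adjusted p = 0.025) and Rpl7 (0.014) by limma.

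The share of all signal taken by members differed by less than the spread of the arrays. The probe sets representing members carried 3.16%, 3.28% and 2.96% of the summed signal on parental arrays and 3.20%, 3.18% and 2.90% on HML2 arrays. The means were 3.13% ± 0.16 and 3.09% ± 0.17 (SD, n = 3), an exact two-sided permutation p of 0.7. All 105 probe sets of members together carried 5.51% ± 0.24 and 5.46% ± 0.26 (exact p = 0.6).

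**Figure D2:**
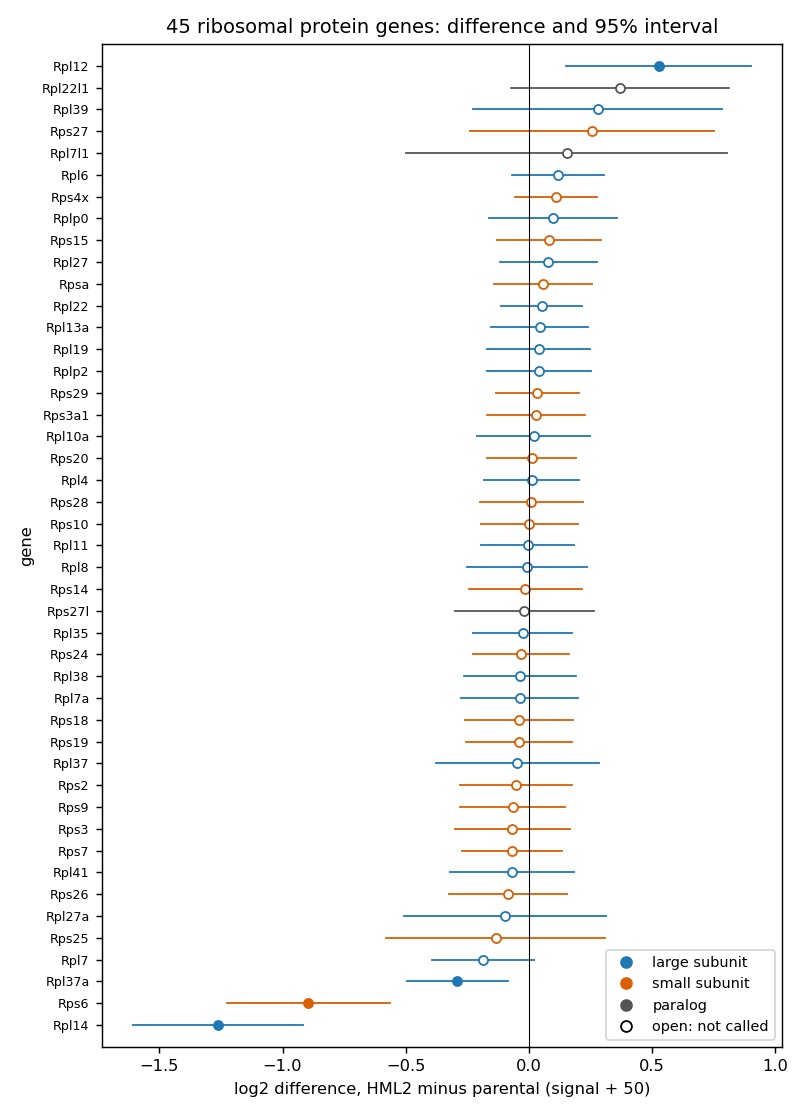
Log2 difference of HML2 against parental cells for the 45 members tested, with 95% intervals from the limma fit, coloured by subunit and filled where called. The 4 filled genes are Rpl12 at 0.53, Rpl37a at -0.29, Rps6 at -0.90 and Rpl14 at -1.26, and the other 41 intervals include 0.

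Neither subunit stood out by its counts. The large subunit had 1 higher and 2 lower of 22 genes and a median difference of 0.00, and the small subunit had 0 higher and 1 lower of 20 (limma; 0 and 1 at an unadjusted p below 0.05) and a median of -0.02. The 3 paralogs tested had differences of -0.02, 0.15 and 0.37.

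The largest difference was that of the dim probe set representing Rpl14, of the large subunit. It read 2681, 2144 and 2321 in parental cells and 1141, 864 and 898 in HML2 cells. Every HML2 array was below every parental array, with means of 2382 ± 274 and 968 ± 151 and a log2 difference of -1.26 ± 0.15 (SE, adjusted p = 8.2e-04, limma). The 5 probe sets that list Rpl14 together with a pseudogene were much brighter, with means of 14311 to 28578, and differed by -0.14 to -0.05, with none called (lowest adjusted p = 0.29 over all probe sets). Some of these 5 also had every HML2 array below every parental array, as had 22.7% of all probe sets tested, and the others overlapped. The value of -1.26 thus describes 1 probe set, and the probe sets disagreed in the size of the difference but not in its sign.

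Rps6, the small subunit protein phosphorylated by S6 kinases after growth signals, was likewise represented by a dim probe set, which read 1214, 1168 and 1192 against 542, 734 and 589.6. The groups were again apart, at -0.90 ± 0.15 (adjusted p = 0.0032). Of the probe sets that list Rps6 together with a pseudogene, 4 were bright, with means of 30518 to 39303 and differences of -0.07 to 0.02, and 4 were dimmer, with differences of 0.11 to 0.43. None of these was called (lowest adjusted p = 0.15), so that 1 of 9 probe sets above the filter that list Rps6 was called. The signals of the probe sets representing Rpl14 and Rps6 are far below those of most members, at ranks 4803 and 7381 of all probe sets by mean signal.

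Rpl37a, a zinc-finger protein of the large subunit, was the only bright member called. It read 32353, 34429 and 29072 in parental and 24931, 27729 and 25572 in HML2 cells. The difference of -0.29 ± 0.090 had an adjusted p of 0.043. The call was lost with median centring (adjusted p = 0.11), with no filter (0.14), with no intensity trend (0.13) and without any array except parental replicate 3 (0.055 to 0.12). It was also lost without probe sets whose names end in _x_at or _s_at (0.081), and the representative of Rpl37a ends in _x_at. Rpl37a had 2 more probe sets above the filter, at -0.24 and -0.47, which did not pass the test on their own (adjusted p = 0.084 and 0.062). Rpl7, also of the large subunit, had the next lowest difference of a bright member, -0.19 (adjusted p = 0.17), with signals of 30141, 33188 and 28035 against 27074, 28181 and 24970.5. It was called with quantile normalization (adjusted p = 0.036), with cyclic loess (0.024) and with the replicate block (0.014). Other bright probe sets of Rpl7 differed by only -0.08 and -0.03 (adjusted p = 0.49 and 0.88, limma). The mean over all probe sets of Rpl7 differed by -0.10 (adjusted p = 0.34). In GRCm38.p6 both genes lie on chromosome 1, where 181 of 521 genes tested were lower and 21 higher, with a median of -0.32.

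Rpl12, a large subunit protein at the base of the stalk, was the only member called higher, again from a dim probe set. Its signals were 1051, 1142 and 1155 in parental and 1277, 1861 and 1819.8 in HML2 cells, which gave a difference of 0.53 ± 0.16 (adjusted p = 0.044). HML2 array 1 was much the lowest of its group and still above all parental arrays. The call was lost with no filter (0.070), with no intensity trend (0.053) and without any array except HML2 replicate 1, with adjusted p-values of 0.096 to 0.15, and without that array the difference was 0.70 (adjusted p = 0.0016). The 2 bright probe sets that list Rpl12 beside other symbols, with means of 23964 and 33897, differed by 0.06 and 0.15 and were not called (lowest adjusted p = 0.26).

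**Figure D3:**
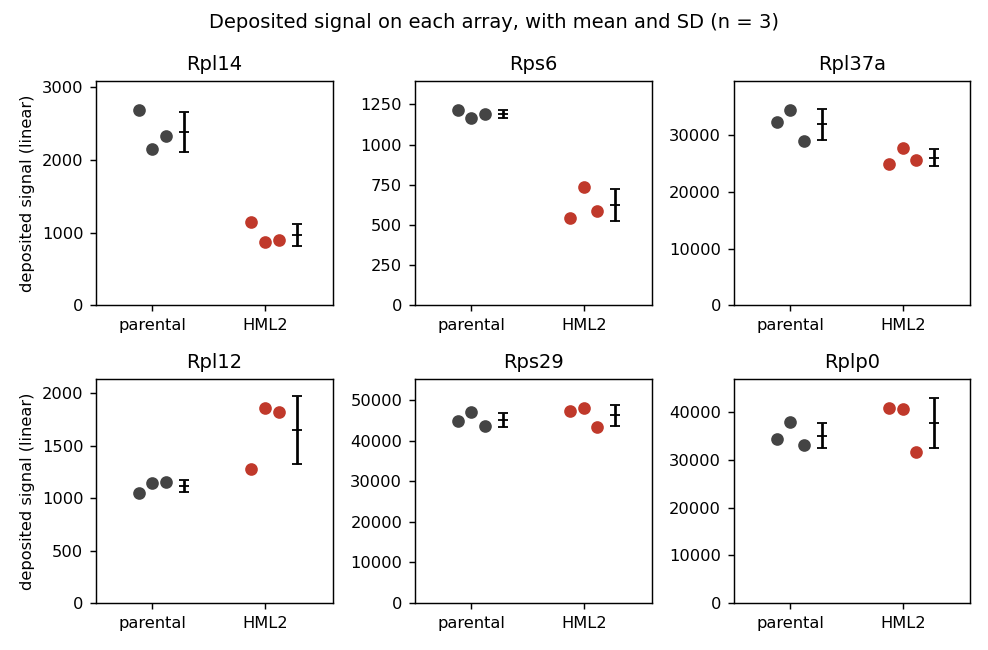
Deposited linear signal on each of the 6 arrays for the 4 called members (Rpl14, Rps6, Rpl37a, Rpl12) and for Rps29 and Rplp0, which were not called, with the group mean and SD (n = 3) beside the points. The groups are apart in the first 4 panels and overlap in the last 2.

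Of the genes with special roles in the ribosome described next, none passed the test. Rplp0 and Rplp2 encode proteins of the acidic stalk, which recruits elongation factors. Rplp0 read 34379, 37962 and 33044 in parental and 40921, 40785 and 31648 in HML2 cells (0.10, interval -0.16 to 0.36), with HML2 array 3 the lowest of all. Rplp2 had a difference of 0.04 (-0.17 to 0.25). The stalk gene Rplp1 is not a member, and a bright probe set that lists it beside another symbol differed by -0.05 and was not called. Rpl11, which can bind and inhibit Mdm2 when free of the ribosome, went from 25251 ± 1728 to 25167 ± 891, a difference of -0.00 (-0.19 to 0.19). Rpsa, a small subunit protein also described as a laminin receptor, had a difference of 0.06 (-0.14 to 0.26), and Rps4x, which is X-linked, one of 0.11 (-0.06 to 0.28).

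Paralogs are second genes for a ribosomal protein, often with restricted expression. Rpl22l1 read 4218, 3382 and 3281 in parental and 6352, 4054 and 3959 in HML2 cells, with HML2 array 1 well above the rest. Its difference of 0.37 ± 0.19 did not pass the test (adjusted p = 0.19) except with the block. Rpl22l1 lies on chromosome 3, where 110 of 450 genes tested were higher and 39 lower. Its partner Rpl22 read 33441, 34995 and 32339.8 against 35492, 35281 and 33730.4, a difference of 0.05. Rpl7l1 read 2812, 3244 and 3149.8 against 1976, 4489 and 4465, so that its HML2 arrays lay on either side of the parental ones. Its difference was 0.15 ± 0.29 (adjusted p = 0.73) and depended on single arrays. It was 0.54 without HML2 replicate 1 (adjusted p = 0.0043), -0.04 without HML2 replicate 2 or 3, and 0.47 with array weights (adjusted p = 0.0068). Rps27l, a target of Trp53, had a difference of -0.02, and the representative probe set of its partner Rps27 was dim, at 225 ± 51.3 and 280.3 ± 75.1.

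The remaining members of the 5 highest and 5 lowest were dim and not called. Rpl39, of the large subunit, went from 257 ± 52.8 to 327 ± 98.0 (0.28) and Rps25, of the small subunit, from 1435 ± 299.7 to 1297 ± 238 (-0.13). Their intervals were wide, from -0.23 to 0.79 and from -0.58 to 0.31. The 4 members below the filter, Rpl3l, Rpl39l, Rps4l and Rps16, had mean signals of 4.52 to 15.4, at background. Rpl3l is known from striated muscle and Rpl39l and Rps4l from germ cells. Rps16 encodes a protein of every ribosome, and its value describes only the probe set that carries its symbol alone; 2 probe sets that list Rps16 beside other symbols had means of 36256 and 38024 and differences of -0.06 and 0.02. Rpl39, Rps25 and Rps27 were each also listed on 1 bright probe set with several symbols, at -0.07, 0.05 and 0.17, none of them called. Levels of different probe sets were not compared as amounts of message.

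Probe sets of the same gene did not always move together. Of the members' probe sets, 93 passed the filter, of which 2 were called higher and 7 lower, beside 11.3% and 14.1% of 16412 probe sets with 1 symbol. The arrays of the groups were apart for 4 above and 9 below, beside 20.0% and 23.3%. All called probe sets but that of Rpl37a lay below a mean signal of 10000, where 2 of 24 were higher and 6 lower, against 0 and 1 of 69 above it (limma; 1 and 2 at an unadjusted p below 0.05). In 4 genes the brightest probe set was not called and another was.

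Rpl22 showed the widest disagreement. Its brightest probe sets differed by 0.05 and 0.08, whereas another, with 1627, 1231 and 1712 in parental and 367, 247 and 289 in HML2 cells, fell by 2.17 on the log2 scale (SE 0.19, adjusted p = 1.3e-04). The mean of that dim probe set was 2.67% of the mean of the brightest. Rps20, of the small subunit, had 2 bright probe sets at 0.01 and 0.10 and 2 dim ones that fell by 1.24 and 1.23 (adjusted p = 0.0040 and 0.0024). The dim ones read 291 to 508 and 306 to 454 in parental cells and 116 to 163 and 110.4 to 155 in HML2 cells.

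Rps3, a small subunit protein near the entry of the message, had a bright probe set at -0.07 and a dimmer one that read 3985, 3031 and 3856 against 2446, 2463 and 2349.9. The dimmer one fell by 0.56 (adjusted p = 0.016), and it no longer passed when parental replicate 1, parental replicate 3 or HML2 replicate 3 was left out (0.058 to 0.079). In the opposite direction, a second probe set of Rpl7l1 read 1617, 1846 and 1838 in parental and 2747, 3069 and 3057 in HML2 cells, a difference of 0.73 ± 0.12 (adjusted p = 0.0035). With the mean over all probe sets of a gene as its value, 6 members were lower, beside 15.1% of all genes under that setting, with Rpl22 (-0.68), Rps20 (-0.59) and Rps3 (-0.31) added.

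The probe sets that list several symbols had the same division. They cannot be assigned to 1 gene and are given by counts and ranges. Of 110, 101 passed the filter, and 79 of these were above a mean signal of 10000. The bright ones had a median difference of -0.02, with 0 higher and 0 lower (limma; 0 and 1 at an unadjusted p below 0.05). Of the 22 dimmer ones, 0 were higher and 5 lower (0 and 7 at an unadjusted p below 0.05), with differences from -0.89 to -1.69, beside 10.7% higher and 13.5% lower of all 18359 probe sets tested. The groups were apart for 0 of the 101 above and 11 below, beside 19.5% and 22.7%. With the block 4 of the 101 were higher and 11 lower. Under that fit 17.8% of all genes were higher and 19.6% lower, and no share over probe sets is given. In the main fit both kinds of probe set thus gave calls below a mean signal of 10000 and 1 call above it. The sequences of the array's probes were not used here, and which transcripts the dim probe sets detect was not tested.

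**Figure D4:**
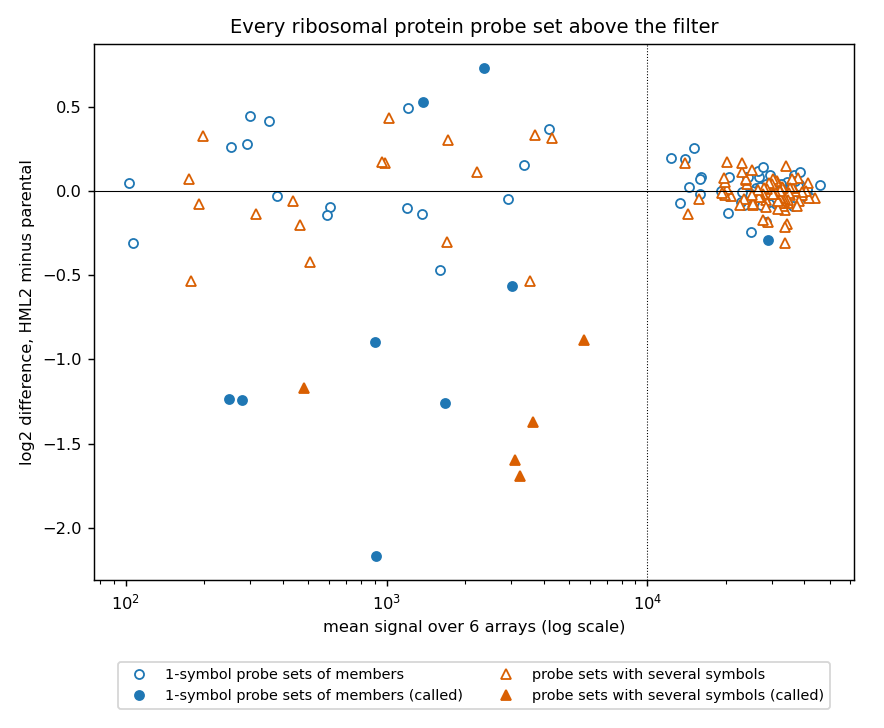
Log2 difference of every probe set above the filter that names a ribosomal protein gene, against its mean signal on a log axis, for 93 probe sets with 1 symbol (circles) and 101 with several (triangles), filled where called. The dotted line marks a mean signal of 10000: to its right 1 of 148 probe sets is filled, and to its left the filled points reach down to -2.17.

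Many genes that build ribosomes were higher in HML2 cells. Of 108 genes in lists for RNA polymerase I, modification of ribosomal RNA and assembly of the subunits, 44 were higher and 0 lower (limma; 55 and 1 at an unadjusted p below 0.05), which is 40.7% beside 12.3% of all genes, and the median difference was 0.38. The higher genes numbered 22, 40 and 21 without parental replicate 1, 2 and 3, and 64, 28 and 24 without HML2 replicate 1, 2 and 3, with 1 lower gene without HML2 replicate 1. Of all genes, 8.33%, 8.85% and 6.30% were higher without parental replicate 1, 2 and 3. Without HML2 replicate 1, 2 and 3 the shares were 16.8%, 9.06% and 7.64%. Small subunit assembly had 17 higher of 35, with Rrp9 (464 ± 112 to 1065 ± 117) and the kinase gene Riok2 (1105 ± 31.8 to 2475 ± 679). Large subunit assembly had 18 of 42, with Sdad1 (1429.6 ± 150.0 to 3687 ± 722) and Nip7 (3461 ± 197 to 7967 ± 818). Modification of ribosomal RNA had 7 of 13, with the methyltransferase gene Nop2 (0.88) and Nolc1 (0.74), and polymerase I had 2 of 18.

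Other translation genes were taken in 3 lists, to be read beside 12.3% higher and 14.9% lower of all genes, or 17.8% and 19.6% with the block. Genes that are not members and whose messages carry the same 5′ tract had 1 higher and 1 lower of 16, with a median of -0.03. Npm1 was higher (0.26) and Nap1l1 lower (-0.47). The list included Fau (-0.04), which encodes a small subunit ribosomal protein under a symbol of another form. The call of Npm1 was lost with quantile normalization or without any array except parental replicate 2. The elongation factor gene Eef1a1, a textbook case, differed by -0.04. Initiation factors had 8 higher and 0 lower of 30 (15 and 0 at an unadjusted p below 0.05), led by the cap-binding factor gene Eif4e (3785 ± 121 to 7145 ± 458), and 15 higher with the block. Eif4e lies on chromosome 3, where 110 of 450 genes tested were higher and 39 lower, with a median of 0.20. Eif2a (0.77), also called higher, lies on chromosome 3 too. Eif6 and Eif1a are among the called initiation factor genes on other chromosomes. Mitochondrial ribosomal protein genes, which serve the separate ribosome of that organelle, had 17 higher and 4 lower of 76 and a median of 0.24. Mrpl47 (1.53) and Mrps10 (1.16) had the largest increases and Mrps6 (-1.01) the largest decrease. With the block 26 were higher, and the count was 9 without parental replicate 3, 11 without HML2 replicate 2 or 3 and 29 without HML2 replicate 1. Of all genes, 6.30% were higher without parental replicate 3, 9.06% and 7.64% without HML2 replicate 2 and 3, and 16.8% without HML2 replicate 1.

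**Figure D5:**
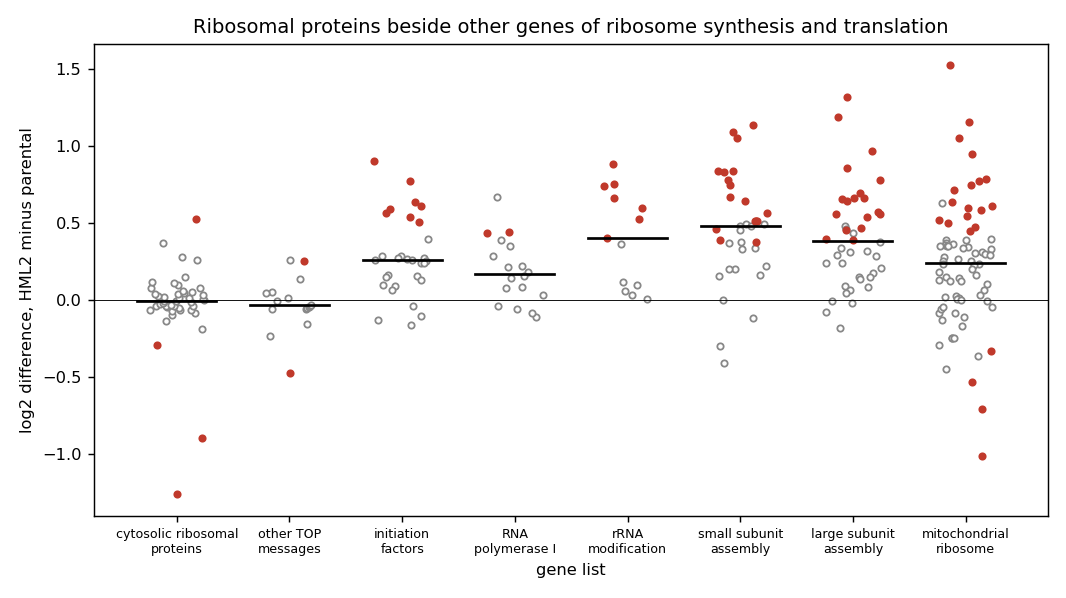
Log2 difference of each gene tested in 8 lists, with called genes in red and the list median as a black bar. The bar of the cytosolic ribosomal proteins and that of the other TOP messages (messages with a 5′ terminal oligopyrimidine tract) lie near 0, and those of ribosomal RNA modification and subunit assembly lie between 0.38 and 0.48.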

How the data were processed

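RNA from 6 cultures was hybridised to Affymetrix Mouse Genome 430 2.0 arrays. The deposited values are linear intensities that the authors computed for each probe set with MAS5, as the submitters' processing notes name it, in a version the sources used here do not give. There were 45101 probe sets, 64 of them controls. The platform annotation gave 1 symbol for 34945 and several for 932, and names were updated through a RefSeq table of GRCm38.p6, which held 34741 of the former. The test was limma 3.58.1 (R 4.3.3; lmFit, eBayes with an intensity trend, no covariates), after an offset of 50, a minimum mean signal of 100 and 1 probe set per gene. The fit was checked on simulated data. The number of arrays limits the precision.

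The members and lists were chosen with earlier results of these data known. Named members were those called, the 5 highest and 5 lowest, the 5 brightest, paralogs with partners, stalk genes, Rps6, Rpl11, Rpsa and members below the filter (the rule also held Rpl5, which is no member). In each list up to 5 called genes with the largest differences qualified. Eef1a1, the higher growth control genes, probe sets of Rps20 and Rps3, and markers were chosen after their values were seen. So were Fau and the several-symbol probe sets set beside members or given for Rplp1. Replicate numbers were taken to pair the arrays, since the deviations of same-numbered arrays correlated above 0.1 in all 3 pairs; the main fit did not use them. Alternatives covered scaling, offset, filter, probe set choice, block, array weights, variance trend and leaving out each array.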

Additional observations from a re-analysis of the deposited data

How the results depend on the processing

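With 3 arrays a group, calls near the threshold moved with single arrays. Against 1 member higher and 3 lower, leaving out 1 array gave 0 to 2 higher and 2 to 3 lower. Of all genes, 6.30% to 16.8% were higher and 8.49% to 19.7% lower in those fits. Members called higher numbered 0 with no filter or no intensity trend, 2 with the replicate block or with Rps19bp1 counted, and 3 with array weights. Of all genes, 5.07% were higher with no filter, 11.6% with no trend, 17.8% with the block and 25.9% with array weights. Members called lower numbered 6 with the mean of all probe sets (15.1% of all genes), where Rpl22 went from 0.05 to -0.68. The median of the members was -0.04 to 0.05, and the difference in their share of signal -0.13 to 0.059 percentage points, without 1 array.

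With the replicate block, higher genes numbered 26 for the mitochondrial ribosome, 15 for initiation factors, 3 for the response to free ribosomal proteins and 2 for other TOP messages, with 3 of the last lower; quantile normalization gave 0 and 2 of these. The block gave 6 member probe sets higher, and of several-symbol probe sets 4 higher and 11 lower, against 9 lower with quantile normalization and with cyclic loess. Of all genes, 17.8% were higher and 19.6% lower with the block. With quantile normalization 13.8% were lower, and with cyclic loess 14.3%. The block changed no other count by over 1.5 times. Leaving out 1 array gave ranges of higher and lower genes of 21 to 64 and 0 to 1 for biogenesis, 9 to 29 and 2 to 5 for the mitochondrial ribosome, 0 to 1 and 1 to 1 for other TOP messages, 5 to 12 and 0 to 0 for initiation factors, 1 to 3 and 5 to 9 for growth control, and 0 to 1 and 1 to 1 for free ribosomal proteins. Ranges were 1 to 6 and 5 to 7 for member probe sets and 0 to 2 and 5 to 6 for several-symbol ones. In the fits without 1 array, 6.30% to 16.8% of all genes were higher and 8.49% to 19.7% lower. Shares over all probe sets are not given here for these fits or for the other alternatives. The single probe sets representing Rpl14 and Rps6 stayed called under all 18 alternatives run on them. Brighter several-symbol probe sets that list these genes were not called in the main fit. Whether any of them was called with the block or under another alternative is not given here.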

Other observations

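Genes that control ribosome synthesis went both ways. Of 23 genes for mTORC1 (the kinase complex that couples nutrients to translation), S6 kinases, LARP proteins and the MYC network, 3 were higher and 8 lower, which is 13.0% and 34.8% beside 12.3% and 14.9% of all genes. The higher ones were Eif4ebp2 (0.63) and Eif4ebp1 (0.59), which encode repressors of the cap-binding factor, and Ddit4 (0.57), which encodes an inhibitor of mTORC1. The MYC antagonist gene Mxd4 read 2368, 1509 and 2202 in parental and 14.8, 74.2 and 37.4 in HML2 cells. Pdcd4, which encodes an inhibitor of translation initiation, went from 1877 ± 598 to 280.1 ± 154 (SD, n = 3). Mnt, another MYC antagonist gene, had a difference of -0.74 (adjusted p = 0.0036, limma) and Mxd1 one of -0.95. Tsc1 was also among the 8 lower genes, and the rest of the 8 are not named here. Of 7 genes of the response to free ribosomal proteins, Cdkn1a was higher (1.34) and Pml lower (-1.15); the call of Cdkn1a was lost without any of the parental arrays. Rps19bp1, not counted as a member, was higher by 0.71 (adjusted p = 0.011).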
